A study of Homo sapiens with 14 samples.

Results

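The MHC class II antigen presentation pathway was followed through 10 genes by their symbols: the chain genes HLA-DRA, HLA-DRB1, HLA-DPA1, HLA-DPB1, HLA-DQA1 and HLA-DQB1, the peptide editor genes HLA-DMA and HLA-DMB, the invariant chain gene CD74 and the transactivator gene CIITA. All 10 had a value in EOL-1, of 16336 genes with a value in any of the 3 deposited tables. In MV4;11, 7 of the 10 had values, and HLA-DPB1, HLA-DQA1 and HLA-DMB were not analysed there. RNA-seq was done on total RNA of both human leukaemia lines, with 7 groups of 2 libraries and 14 libraries overall. EOL-1 was derived from an eosinophilic leukaemia, and MV4;11 is a myelomonocytic line with a KMT2A-AFF1 fusion. In EOL-1, cells with an sgRNA against EZH2 (sgEZH2) were set against cells labelled sgEV. In MV4;11, cells with an shRNA against EZH2 (shEZH2) were set against cells labelled EV, and cells with either of the cMyc sgRNAs, guide 1 and guide 5 (sgcMyc), were set against a common control labelled sgEV. All groups, controls included, received doxycycline at 1 µg/ml for 4 days. EZH2 methylates histone H3 as the catalytic subunit of the Polycomb complex PRC2, and MYC is a transcription factor of growth genes. Nothing in the labels says that replicate libraries are separate cultures, or whether a line was 1 clone, so p-values measure only how far these libraries spread, and that spread may be technical.

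Class II molecules are pairs of an alpha and a beta chain that display peptides from the endosomal route to CD4+ T cells. The invariant chain, encoded by CD74, occupies the groove of a new pair until it is cut away, and HLA-DM then exchanges the remaining fragment for peptides. CIITA is the master transactivator of these genes. It binds no DNA itself and is held at their promoters by RFX, CREB and NF-Y, the last of which binds the CCAAT motif of the Y box. Antigen presenting cells such as B cells, dendritic cells and monocytes express the pathway, as do many myeloid leukaemias.

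The promoters are shown because CIITA acts through motifs in class II promoters. Most of the genes measured moved together in EOL-1 and under the cMyc guides, and whether the motifs bear on that was not tested. Sequences are RefSeq reference sequence of GRCh38.p14, not of these cell lines, and 8 of the 10 genes matched the promoter table. In the 6 stretches of 75 bases below, given 5′ to 3′ on the strand of the gene, capitals mark AGNNACNGA, a form of the X box read from these promoters themselves, and ATTGG or CCAAT, the Y box motif in either direction.
HLA-DRB1, chr6:32589863-32589937, minus strand: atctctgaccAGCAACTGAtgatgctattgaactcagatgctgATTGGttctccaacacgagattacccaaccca
HLA-DQA1, chr6:32637294-32637368, plus strand: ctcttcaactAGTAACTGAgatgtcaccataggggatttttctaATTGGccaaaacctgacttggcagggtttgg
HLA-DQB1, chr6:32666714-32666788, minus strand: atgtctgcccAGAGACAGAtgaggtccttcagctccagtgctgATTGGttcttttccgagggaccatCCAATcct
HLA-DMA, chr6:32953146-32953220, minus strand: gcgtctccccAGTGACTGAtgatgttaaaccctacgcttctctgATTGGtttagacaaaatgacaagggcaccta
HLA-DMB, chr6:32941052-32941126, minus strand: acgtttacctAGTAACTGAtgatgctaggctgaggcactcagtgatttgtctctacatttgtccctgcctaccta
CD74, chr5:150412939-150413013, minus strand: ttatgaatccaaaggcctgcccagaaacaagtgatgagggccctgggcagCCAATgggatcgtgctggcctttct

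In windows of 250 bases before to 50 bases after the start, AGNNACNGA on either strand was in 6 of the 9 promoters of these 8 genes and in 15.3% of all 35116 promoters. ATTGG on either strand was in 7 of the 9 and in 34.6% of all. AGNNACNGA followed by ATTGG at 10 to 40 bases on the strand of the gene was in 4 of the 9 (HLA-DRB1, HLA-DQA1, HLA-DQB1 and HLA-DMA) and in 0.199% of all. The promoters of HLA-DPA1, HLA-DPB1, HLA-DMB and CD74 did not hold that pair, and those of HLA-DPA1 and HLA-DPB1 are not printed above. A match is a description of the letters and not of a bound site, and the form of the X box was chosen after these promoters were seen.

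Gene counts per library were 24574102 to 30256823 in EOL-1 and 13313052 to 16274568 in MV4;11. EZH2 averaged 26.9 ± 1.14 CPM in EOL-1 sgEZH2 cells and 70.5 ± 0.198 CPM in EOL-1 sgEV cells, and 9.72 ± 0.0357 CPM in MV4;11 shEZH2 cells and 74.5 ± 1.75 CPM in EV cells (SD, n = 2 each). MYC averaged 868 ± 4.15 CPM with guide 1 and 820 ± 2.51 CPM with guide 5, against 659 ± 1.93 CPM in sgEV cells (SD, n = 2 each). The transcript of the targeted gene was therefore higher in the libraries labelled sgcMyc, and these are called by that label throughout. Of 8 eosinophil marker genes, RNASE2 alone had a value in EOL-1, and EPX, PRG2, CLC and IL5RA were not analysed there. CPM is the count scaled to a common library size by TMM within each deposited table, with no correction for gene length, so levels set across tables are a description in which the cell line, the vector and the table cannot be told apart.

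**Figure D1:**
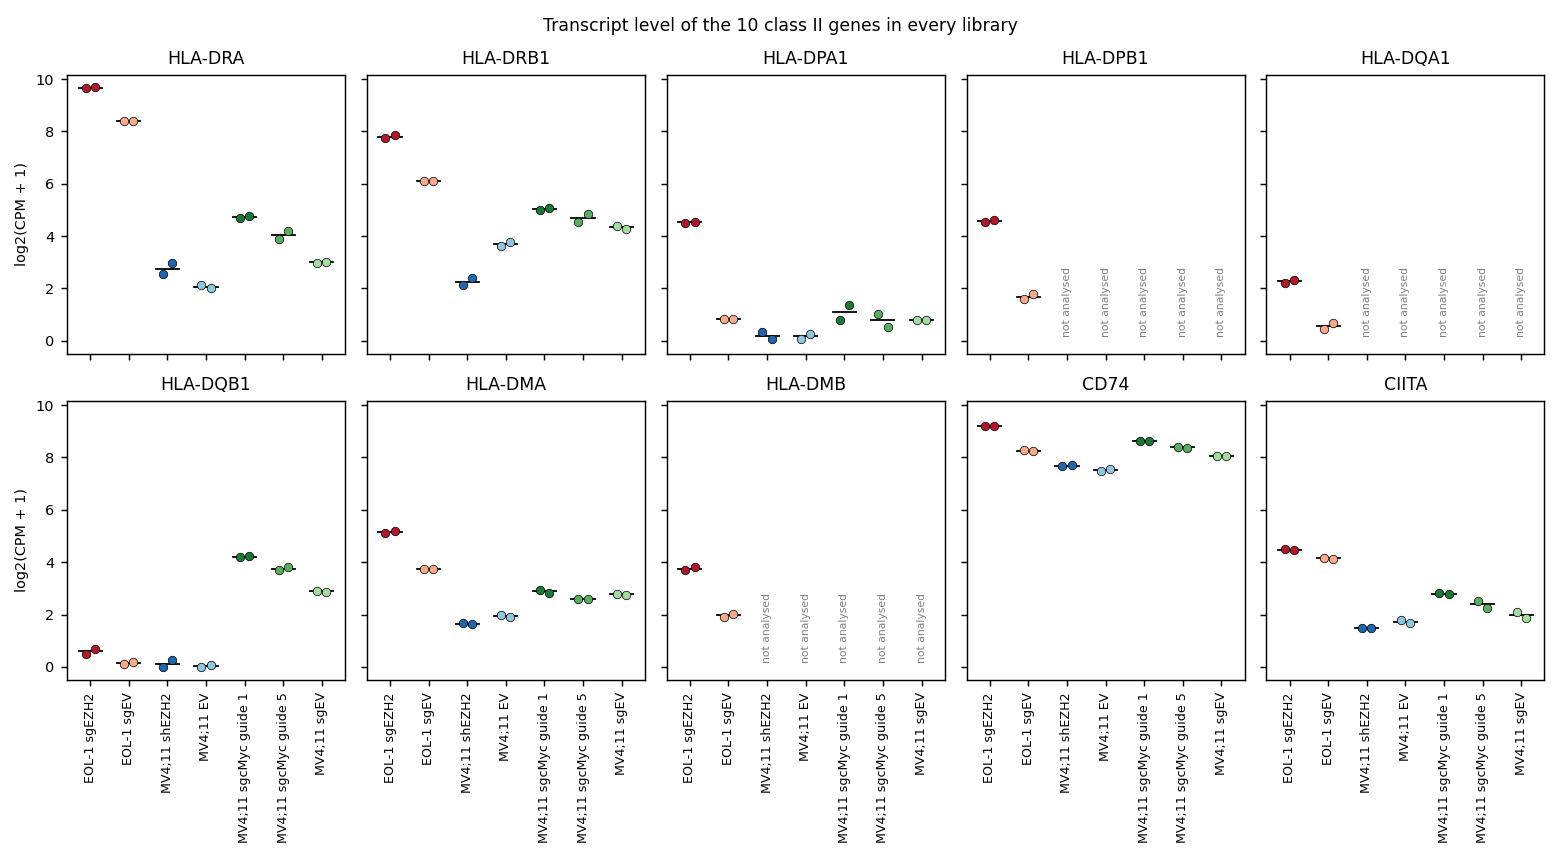
Level of each of the 10 class II genes in every library as log2(CPM + 1), with the 2 libraries of a group as points and their mean as a line, in 7 groups. All 10 genes were higher in both EOL-1 sgEZH2 libraries than in both EOL-1 sgEV libraries. How many of all genes separate in this way was not counted, and HLA-DQA1 and HLA-DQB1 passed the filter through sgEZH2 alone. HLA-DRB1 was lowest in MV4;11 shEZH2 cells. HLA-DQB1 stood near 0 in the shEZH2 and EV libraries of MV4;11 and under 1 CPM in all EOL-1 libraries. It was higher in the libraries labelled sgcMyc and in MV4;11 sgEV cells.

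In EOL-1, all 10 class II genes rose with sgEZH2. By edgeR's quasi-likelihood test at an adjusted p under 0.05, 10 of 10 were called higher and 0 lower, beside 15.1% higher, 11.8% lower and 26.9% in all among the 13890 genes tested. The median log2 fold change was 1.9 over the 10 genes and 0.01 over all genes tested. HLA-DQA1 and HLA-DQB1 passed the filter on low counts through the sgEZH2 libraries alone, so their call is read as a description. In bulk RNA, a change in the share of cells with a transcript and a change in its level per cell cannot be told apart.

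The transactivator moved least. CIITA stood at 21.5 and 21.2 CPM in the sgEZH2 libraries, against 17.0 and 16.6 CPM in the sgEV libraries of EOL-1. The groups did not overlap, and the log2 fold change was 0.35 ± 0.07 (SE; adjusted p = 0.00092, edgeR's quasi-likelihood test). It was the smallest change of the 10 genes.

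The HLA-DP genes had the largest log2 fold changes of the 10 in EOL-1. HLA-DPA1, its alpha chain, had 582 and 541 counts (21.7 and 22.4 CPM) in the sgEZH2 libraries of EOL-1, against 22 and 24 counts (0.804 and 0.786 CPM) in the sgEV libraries. That is a log2 fold change of 4.79 ± 0.13 (SE), or 27.6-fold, with an adjusted p of 4.5e-15 in edgeR's quasi-likelihood test. HLA-DPB1, its beta chain, stood at 22.1 and 23.4 CPM in sgEZH2 libraries, against 2.01 and 2.46 CPM in sgEV libraries. Its log2 fold change was 3.34 ± 0.11 (SE; adjusted p = 7.2e-14, edgeR's quasi-likelihood test). Both transcripts were thus near 22 CPM in all sgEZH2 libraries and under 3 CPM in all sgEV libraries.

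The HLA-DR genes had more counts than the other chain genes, in the controls as well. HLA-DRA, the alpha chain shared by all HLA-DR pairs, stood at 799 and 823 CPM in the sgEZH2 libraries, against 334 and 334 CPM in the sgEV libraries of EOL-1. Its log2 fold change was 1.28 ± 0.03 (SE; adjusted p = 1.6e-15, edgeR's quasi-likelihood test). HLA-DRB1, the main beta chain, stood at 212 and 232 CPM with sgEZH2, against 67.4 and 67.9 CPM with sgEV, a log2 fold change of 1.71 ± 0.04 (SE; adjusted p = 3.6e-15, edgeR's quasi-likelihood test). No library of one group lay within the range of the other for either gene. The nearby beta chain gene HLA-DRB5 changed by 1.95 ± 0.05 and the HLA-DRB6 pseudogene by 2.46 ± 0.18 on the log2 scale (SE), and both were called. Of 50-base windows of the HLA-DRB1 transcript, 9.92% also occurred in HLA-DRB5, HLA-DRB6 or HLA-DPB1, so the split of reads among these copies is uncertain.

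The HLA-DQ genes rested on the fewest counts in EOL-1. HLA-DQA1, its alpha chain, stood at 3.66 and 4.05 CPM with sgEZH2, against 0.365 and 0.622 CPM with sgEV, a log2 fold change of 2.94 ± 0.27 (SE). HLA-DQB1, its beta chain, had 11 and 15 counts with sgEZH2, against 2 and 4 counts with sgEV, a log2 fold change of 2.26 ± 0.63 (SE; adjusted p = 0.012, edgeR's quasi-likelihood test). That call was lost without sgEV replicate 1 (adjusted p = 0.121) without sgEZH2 replicate 2 (adjusted p = 0.137) and in DESeq2 (adjusted p = 0.145). HLA-DQA1 shares 9.53% of its 50-base windows with HLA-DQA2, and the estimated counts of both genes summed to a whole number within 0.01 in 4 of 4 EOL-1 libraries. Those sums were 166 and 164 counts with sgEZH2, against 24 and 26 with sgEV. HLA-DQA1 took 58.9 and 59.9% of them with sgEZH2, against 42.5 and 74.0% with sgEV, so the level of the pair is firmer than that of either gene.

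The genes that load peptides rose as well. CD74, the invariant chain, stood at 587 and 595 CPM with sgEZH2, against 308 and 303 CPM with sgEV, a log2 fold change of 0.95 ± 0.03 (SE; adjusted p = 5.9e-14, edgeR's quasi-likelihood test). HLA-DMA, the alpha chain of the editor HLA-DM, stood at 34.0 and 35.7 CPM with sgEZH2, against 12.3 and 12.4 CPM with sgEV. HLA-DMB, its beta chain, stood at 11.9 and 13.2 CPM with sgEZH2, against 2.78 and 3.11 CPM with sgEV. The log2 fold changes of HLA-DMA and HLA-DMB were 1.49 ± 0.07 and 2.09 ± 0.12 (SE). HLA-DMA shares 11.6% and HLA-DMB 29% of their 50-base windows with the annotated gene AL645941.2. In counts, HLA-DRA per CD74 was 1.36 and 1.38 with sgEZH2, against 1.08 and 1.1 with sgEV, so the chain gene grew relative to the invariant chain gene.

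In MV4;11, the class II genes did not move together with shEZH2. Of 5 genes tested, HLA-DRA and CD74 were called higher and HLA-DRB1 lower by edgeR's quasi-likelihood test, beside 13.4% of all 13591 genes higher, 14.2% lower and 27.7% in all. The median log2 fold change was -0.35 over the 5 genes and 0.0 over all genes tested. Of all calls, 48.5% were higher, and 36.4% with scaling to the spike-ins. HLA-DPA1 and HLA-DQB1 did not pass the filter on low counts, with 4 and 1 counts in the shEZH2 libraries against 1 and 3 in the EV libraries for HLA-DPA1, and 0 and 3 against 0 and 1 for HLA-DQB1.

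The chains of HLA-DR went opposite ways. HLA-DRB1 stood at 3.35 and 4.28 CPM with shEZH2, against 11.4 and 12.6 CPM with EV, a log2 fold change of -1.65 ± 0.16 (SE; adjusted p = 1.8e-05, edgeR's quasi-likelihood test). HLA-DRA stood at 4.84 and 6.86 CPM with shEZH2, against 3.37 and 3.04 CPM with EV, a log2 fold change of 0.86 ± 0.21 (SE; adjusted p = 0.00987, edgeR's quasi-likelihood test). The groups did not overlap for either gene, and the call on HLA-DRA was lost without shEZH2 replicate 2 (log2 fold change 0.60, adjusted p = 0.116) and in DESeq2 (adjusted p = 0.0974). HLA-DRB5 had a log2 fold change of -1.40 ± 0.48 (SE; adjusted p = 0.0525, edgeR's quasi-likelihood test) and was not called. With HLA-DRB1, HLA-DRB5 and HLA-DRB6 added up, DRB counts per HLA-DRA count were 0.962 and 0.705 with shEZH2, against 3.85 and 5.02 with EV. With the DRB genes summed before the fit, their log2 fold change was -1.57 (adjusted p = 1.1e-05, edgeR's quasi-likelihood test). The balance of beta to alpha transcript was lower in both shEZH2 libraries than in both EV libraries.

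CD74 stood at 202 and 207 CPM with shEZH2, against 178 and 187 CPM with EV. Its log2 fold change of 0.16 ± 0.04 (SE; adjusted p = 0.0161, edgeR's quasi-likelihood test) was lost without shEZH2 replicate 1 (adjusted p = 0.0911) and replicate 2 (adjusted p = 0.169), with spike-in scaling (adjusted p = 0.333) and in DESeq2 (adjusted p = 0.0741). CIITA stood at 1.80 and 1.83 CPM with shEZH2, against 2.43 and 2.18 CPM with EV, and HLA-DMA at 2.23 and 2.08 CPM, against 2.99 and 2.77 CPM. Both were lower without overlap, but neither was called, with log2 fold changes of -0.35 ± 0.26 (adjusted p = 0.368) and -0.42 ± 0.23 (adjusted p = 0.212; SE, edgeR's quasi-likelihood test).

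The effect of EZH2 depletion on these genes differed between the lines when the difference itself was tested in one fit. Of 6 genes tested, 5 had a larger effect in EOL-1 and 0 a smaller one by edgeR's quasi-likelihood test, beside 14.1% larger, 12.5% smaller and 26.5% in all of 13543 genes. The difference of effects on the log2 scale was 3.35 ± 0.15 for HLA-DRB1 (SE; adjusted p = 5.6e-10), 1.91 ± 0.20 for HLA-DMA (adjusted p = 4.5e-06), 0.78 ± 0.05 for CD74 (adjusted p = 1.7e-08) and 0.69 ± 0.21 for CIITA (adjusted p = 0.0344), each in edgeR's quasi-likelihood test. For HLA-DPA1 it was 4.51 ± 1.02 (SE; adjusted p = 0.004), but that gene passed the filter through EOL-1 and had 1 to 4 counts per MV4;11 library. Without EV replicate 2 its adjusted p was 0.226. For HLA-DRA it was 0.41 ± 0.18 (SE; adjusted p = 0.12, edgeR's quasi-likelihood test) and not called, and over the fits without 1 library it ran from 0.18 (without shEZH2 replicate 1) to 0.69 (without shEZH2 replicate 2), where it was called with an adjusted p of 0.0148. The call on CIITA was lost without EV replicate 1 (adjusted p = 0.155), EV replicate 2 (0.0519), shEZH2 replicate 1 (0.108), shEZH2 replicate 2 (0.0903) or EOL-1 sgEV replicate 2 (0.0532), and in DESeq2 (0.186). The line, the reagent (sgRNA or shRNA) and the deposited table change together here and cannot be told apart.

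**Figure D2:**
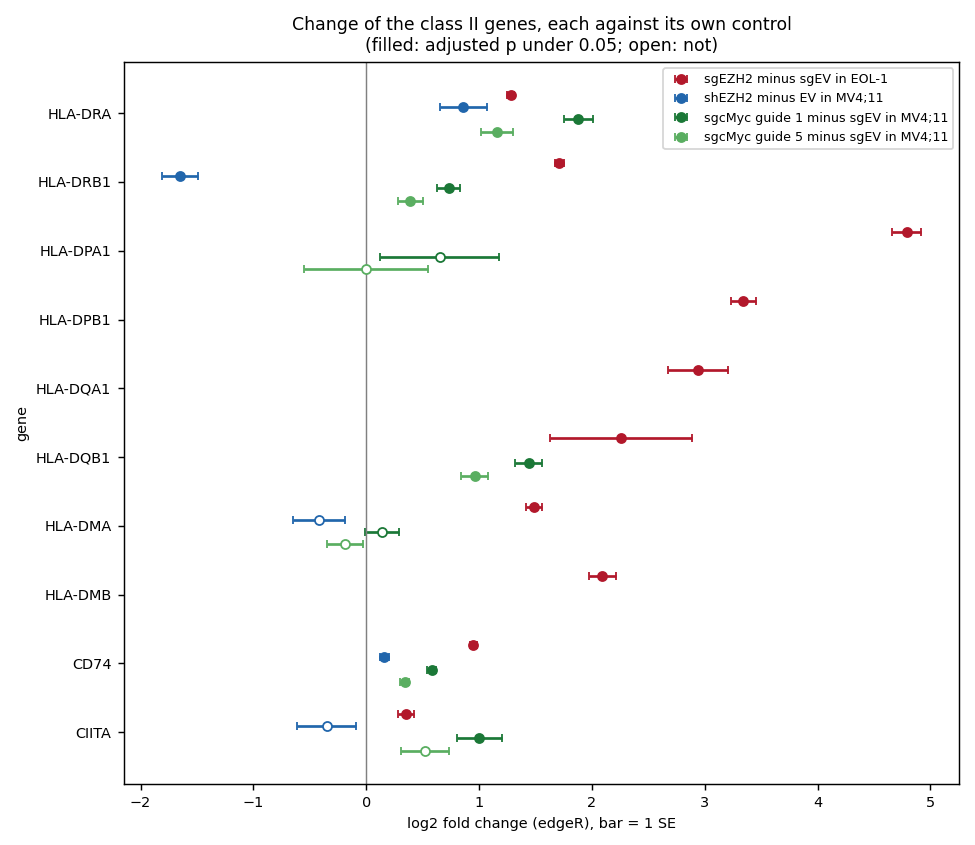
Log2 fold change of each class II gene against its own control (x axis, edgeR, bars 1 SE), for sgEZH2 in EOL-1, shEZH2 in MV4;11 and the sgcMyc guides 1 and 5 in MV4;11. Filled points have an adjusted p under 0.05. The 10 EOL-1 points lie between 0.35 and 4.79, HLA-DRB1 with shEZH2 lies at -1.65, and each guide 1 point lies above its guide 5 point, which shares the sgEV control.

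In the MV4;11 libraries labelled sgcMyc, HLA-DRA, HLA-DQB1, CIITA, HLA-DRB1 and CD74 rose. For the mean of both guides, 5 of 7 genes were called higher and 0 lower by edgeR's quasi-likelihood test, beside 18.6% higher, 18.7% lower and 37.3% in all of 13948 genes tested. The median log2 fold change was 0.56 over the 7 genes and 0.0 over all genes tested. Of all calls, 49.8% were higher, and 72.8% with scaling to the spike-ins, which moved the median of all genes by 0.11 and changed no class II call, while HLA-DMA, not called, stood at 0.09 in place of -0.03. Guide 1 and guide 5 share the sgEV libraries, so each guide's values are given side by side. With guide 1, 5 genes were called higher (16.2% of all genes higher, 16% lower, 32.2% in all), and with guide 5, 4 were (15.7% higher, 15.5% lower, 31.2% in all).

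CIITA stood at 5.99 and 5.87 CPM with guide 1 and at 4.75 and 3.74 CPM with guide 5, against 3.30 and 2.62 CPM in sgEV libraries. All sgcMyc libraries lay above both sgEV libraries. The log2 fold change was 1.0 ± 0.20 with guide 1 (SE; adjusted p = 0.00225, edgeR's quasi-likelihood test) and 0.52 ± 0.21 with guide 5 (adjusted p = 0.0819), which was not called. For the mean of the guides it was 0.76 ± 0.18 (adjusted p = 0.00582, edgeR's quasi-likelihood test), and that call was lost without sgEV replicate 2 (log2 fold change 0.61, adjusted p = 0.0943) and in DESeq2 (adjusted p = 0.0749). For guide 5 alone it ran from 0.34 to 0.70 over the fits without 1 library, and was called without guide 5 replicate 2 (log2 fold change 0.69, adjusted p = 0.0389).

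HLA-DRA rose most. It stood at 25 and 26.2 CPM with guide 1 and at 13.7 and 17.4 CPM with guide 5, against 6.82 and 7.12 CPM in sgEV libraries. The log2 fold change was 1.88 ± 0.13 with guide 1 (SE; adjusted p = 2.8e-07) and 1.16 ± 0.14 with guide 5 (adjusted p = 4.6e-05, edgeR's quasi-likelihood test). HLA-DQB1 stood at 17.3 and 17.6 CPM with guide 1 and at 11.9 and 13 CPM with guide 5, against 6.52 and 6.29 CPM in sgEV libraries. Its log2 fold change was 1.44 ± 0.12 with guide 1 and 0.96 ± 0.12 with guide 5 (SE), both called. The 3 groups were apart for both genes, with guide 1 above guide 5 and guide 5 above sgEV.

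HLA-DRB1 changed less than its partner chain. It stood at 31.2 and 32.5 CPM with guide 1 and at 22.5 and 27.8 CPM with guide 5, against 20.0 and 18.5 CPM in sgEV libraries. The log2 fold change was 0.73 ± 0.10 with guide 1 (SE; adjusted p = 0.00016) and 0.39 ± 0.11 with guide 5 (adjusted p = 0.015, edgeR's quasi-likelihood test). The guide 5 call was lost without sgEV replicate 1 (adjusted p = 0.0593), sgEV replicate 2 (0.136) or guide 5 replicate 2 (0.1, log2 fold change 0.23), and in DESeq2 (0.0849). DRB counts per HLA-DRA count were 1.55 and 1.54 with guide 1 and 2.07 and 1.93 with guide 5, against 3.51 and 3.22 in sgEV libraries, so this ratio was lower in all 4 sgcMyc libraries. Among the copies, HLA-DRB5 rose by 0.86 ± 0.16 and the pseudogene HLA-DPB2 by 1.01 ± 0.37 on the log2 scale for the mean of the guides (SE; adjusted p = 0.00123 and 0.0471, edgeR's quasi-likelihood test), while HLA-DRB6 had -0.09 ± 0.35 and was not called.

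CD74 stood at 394 and 392 CPM with guide 1 and at 334 and 332 CPM with guide 5, against 265 and 262 CPM in sgEV libraries. The log2 fold change was 0.58 ± 0.04 with guide 1 and 0.34 ± 0.04 with guide 5 (SE; adjusted p = 5.5e-07 and 7.6e-05, edgeR's quasi-likelihood test). HLA-DMA stood at 6.68 and 6.14 CPM with guide 1 and at 5.04 and 5.11 CPM with guide 5, against 5.85 and 5.77 CPM in sgEV libraries, so guide 1 lay above and guide 5 below the control. Neither difference was called (adjusted p = 0.527 and 0.393, edgeR's quasi-likelihood test). HLA-DPA1 had 11 and 24 counts with guide 1 and 15 and 6 with guide 5, against 10 and 10 in sgEV libraries. Its groups overlapped for guide 5, and it was not called with either guide.

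The guides differed from each other for HLA-DRA and CD74. Guide 5 minus guide 1 gave a log2 difference of -0.72 ± 0.11 for HLA-DRA (SE; adjusted p = 0.0147) and -0.24 ± 0.04 for CD74 (adjusted p = 0.0304, edgeR's quasi-likelihood test). These 2 of 7 genes were called lower with guide 5 and 0 higher, beside 0.33% lower, 0.0789% higher and 0.409% in all of 13948 genes. HLA-DRB1, HLA-DQB1, HLA-DMA and CIITA were also lower in both guide 5 libraries than in both guide 1 libraries, and HLA-DPA1 overlapped. How many of all genes separate in this way was not counted, and none of these genes was called. Both calls were lost in each fit that left out an sgEV or a guide 1 library, with adjusted p-values of 0.0704 to 0.234 for HLA-DRA and 0.191 to 0.416 for CD74, and with spike-in scaling (0.104 and 0.741). The differences themselves stayed between -0.90 and -0.56 for HLA-DRA and between -0.25 and -0.23 for CD74 over the fits without 1 library. HLA-DQB1 had -0.49 ± 0.11 (SE; adjusted p = 0.0869), and without guide 5 replicate 2 HLA-DQB1 (adjusted p = 0.0266) and HLA-DRB1 (adjusted p = 0.00298, edgeR's quasi-likelihood test) were called as well.

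**Figure D3:**
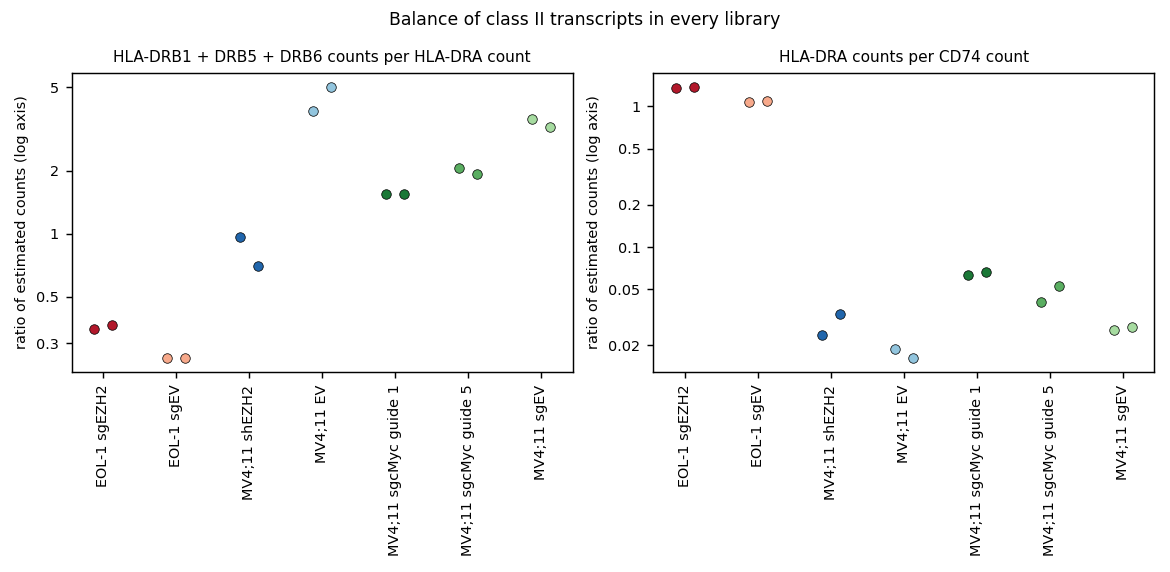
Ratios of estimated counts in every library on log axes, for the summed DRB genes per HLA-DRA (left) and HLA-DRA per CD74 (right), with 2 points per group. DRB per HLA-DRA was 0.352 and 0.368 in EOL-1 sgEZH2 libraries against 0.255 and 0.256 in EOL-1 sgEV libraries, and below its control in the shEZH2 and sgcMyc libraries of MV4;11. HLA-DRA per CD74 was above its control in all 8 libraries of depleted or guide-treated cells.

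Across the 7 groups, the order followed the cell line for most of these genes. HLA-DRA, HLA-DRB1, HLA-DMA and CIITA were highest in EOL-1 sgEZH2 cells, next in EOL-1 sgEV cells, and lower in all MV4;11 groups. HLA-DRA averaged 811 CPM in EOL-1 sgEZH2 cells, 334 in EOL-1 sgEV cells, 25.6 with guide 1, 15.6 with guide 5, 6.97 in MV4;11 sgEV cells, 5.85 with shEZH2 and 3.2 in EV cells, and only MV4;11 sgEV and shEZH2 overlapped among neighbours. CD74 differed less, with 591 CPM in EOL-1 sgEZH2 cells, 393 with guide 1, 333 with guide 5, 306 in EOL-1 sgEV cells, 264 in MV4;11 sgEV cells, 204 with shEZH2 and 183 in EV cells, and no neighbours overlapped. In counts, HLA-DRA per CD74 was 0.0239 and 0.0332 with shEZH2 against 0.0189 and 0.0162 with EV, and 0.0634 and 0.0669 with guide 1 and 0.041 and 0.0525 with guide 5 against 0.0257 and 0.0272 with sgEV in MV4;11. The ratio was at least 1.08 in all EOL-1 libraries and at most 0.0669 in all MV4;11 libraries.

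HLA-DQB1 broke that order. It had 251 and 263 counts with guide 1, 168 and 180 with guide 5 and 87 and 84 in sgEV libraries, against 0 and 3 counts with shEZH2 and 0 and 1 in EV libraries of MV4;11. Set beside each other at equal depth, the sgEV control had 198 times the HLA-DQB1 counts of the EV control, with a 95% interval of 35.0 to 7850 that covers counting error only and rests on 1 count in EV. CIITA was 1.28 times, CD74 1.44 times and HLA-DRB1 1.61 times as high in sgEV as in EV cells by mean CPM. HLA-DMA was 2.01 times, HLA-DRA 2.17 times and HLA-DPA1 5.75 times as high, the last on 20 counts against 4. Genes outside the 10 also differed, among them ICAM1 (33.4 CPM in sgEV, 1.7 in EV) and CLEC10A (18.5 and 0.67). IRF8 differed the other way (360 and 480 CPM). How many of all genes differed between these controls was not counted. Both controls are labelled MV4;11, and the vector and the deposited table differ between them. The labels do not say whether both sets of cells came from 1 stock of the line. In EOL-1 libraries HLA-DQB1 averaged 0.516 CPM with sgEZH2 and 0.102 CPM with sgEV.

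Over all 14 libraries, Pearson's r of log2(CPM + 1) with CIITA was 0.984 for HLA-DRA, 0.941 for HLA-DMA, 0.94 for HLA-DRB1, 0.803 for CD74 and -0.151 for HLA-DQB1. These are descriptions in which the points share cell line, table and control, and EOL-1 libraries stand apart from MV4;11 libraries on most of these genes. Among 10126 genes, those most like CD74 included STX7 (0.975), HLA-C, PLXDC2 and WDR1, with HLA-C encoding a class I heavy chain. The 5 most like HLA-DRA were NFE2 (0.994), ABCC10, PRKAR2B, FNIP2 and RAB32, and those most like CIITA were ZDHHC14 (0.99), KCTD3, RAB33B, RAB32 and C6orf211.

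The complex that holds CIITA at class II promoters was counted next. Of 7 (RFX5, RFXAP, RFXANK, NFYA, NFYB, NFYC and CREB1), 1 was called higher with sgEZH2 in EOL-1, 1 with shEZH2 and 2 with the mean of the sgcMyc guides, and 0 were called lower. Over all genes tested, 15.1% were called higher with sgEZH2, 13.4% with shEZH2 and 18.6% with the mean of the sgcMyc guides, and 11.8%, 14.2% and 18.7% lower in the same order, so these counts of higher calls are near the share over all genes. RFX5, a subunit of the RFX complex, rose by 0.14 ± 0.05 with sgEZH2, 0.18 ± 0.05 with shEZH2 and 0.15 ± 0.05 with sgcMyc on the log2 scale (SE; adjusted p = 0.0414, 0.0192 and 0.0496, edgeR's quasi-likelihood test). The sgcMyc value is for the mean of the guides, and RFX5 was not called with guide 1 (adjusted p = 0.103) or guide 5 (adjusted p = 0.0824, edgeR's quasi-likelihood test) alone. Of 7 coactivators and corepressors that CIITA works with, 1 rose and 4 fell with sgEZH2, 1 rose and 1 fell with shEZH2, and 1 rose and 3 fell with sgcMyc, beside 26.9%, 27.7% and 37.3% of all genes called in either direction in the same order. SMARCA4, the remodelling ATPase BRG1, fell by 0.20 ± 0.03 in EOL-1, by 1.19 ± 0.04 with shEZH2 and by 0.34 ± 0.04 with sgcMyc on the log2 scale (SE).

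Genes of lysosomal antigen processing rose in EOL-1 and mostly fell with shEZH2. With sgEZH2, 7 of 8 tested were called higher and 0 lower (median log2 fold change 0.29, against 0.01 over all genes). With shEZH2, 1 was called higher and 5 lower (median -0.20, against 0.0), and with sgcMyc 4 higher and 1 lower (median 0.23, against 0.0). Among all genes tested, 15.1% were called higher and 11.8% lower with sgEZH2. The shares were 13.4% higher and 14.2% lower with shEZH2, and 18.6% and 18.7% with sgcMyc. IFI30, the thiol reductase that opens disulphides of antigens, rose by 0.99 ± 0.07 in EOL-1 and by 0.41 ± 0.07 with sgcMyc and fell by 1.16 ± 0.21 with shEZH2 on the log2 scale (SE). CTSB, cathepsin B, rose by 0.29 ± 0.03 in EOL-1 and by 0.41 ± 0.04 with sgcMyc and fell by 0.94 ± 0.05 with shEZH2. CST3, the cathepsin inhibitor cystatin C, rose in all 3 comparisons, by 0.89 ± 0.04, 0.81 ± 0.04 and 1.71 ± 0.05 (SE) for sgEZH2, shEZH2 and sgcMyc in that order.

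Interferon gamma is the classical inducer of CIITA. Of 11 genes of its signalling tested in EOL-1, 8 were called higher and 0 lower with sgEZH2 (median log2 fold change 0.39), among them the transcription factor IRF8 (0.54 ± 0.03) and the guanylate binding protein GBP2 (1.01 ± 0.10; SE). With shEZH2, 3 of 10 rose and 3 fell, with IRF8 at 0.55 ± 0.04, IRF1 at -0.44 ± 0.07 and GBP2 at -2.42 ± 0.34 (SE). With sgcMyc, 4 of 10 rose and 2 fell, with IRF8 at 0.67 ± 0.04, IRF1 at -0.33 ± 0.06 and GBP2 at -1.23 ± 0.13 (SE). Of the ligands that give T cells a second signal, 4 of 7 rose and 0 fell in EOL-1, 2 of 7 rose and 2 fell with shEZH2, and 1 of 8 rose and 3 fell with sgcMyc. Over all genes, 15.1% rose and 11.8% fell in EOL-1, 13.4% rose and 14.2% fell with shEZH2, and 18.6% rose and 18.7% fell with sgcMyc. CD86, a ligand of CD28, had a log2 fold change of 0.34 ± 0.07 with sgEZH2, -2.71 ± 0.49 with shEZH2 and -1.01 ± 0.21 with sgcMyc (SE), all called. ICAM1, an adhesion ligand, had 0.76 ± 0.13, -1.51 ± 0.39 and -1.08 ± 0.09 (SE) in the same comparisons, all called.

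**Figure D4:**
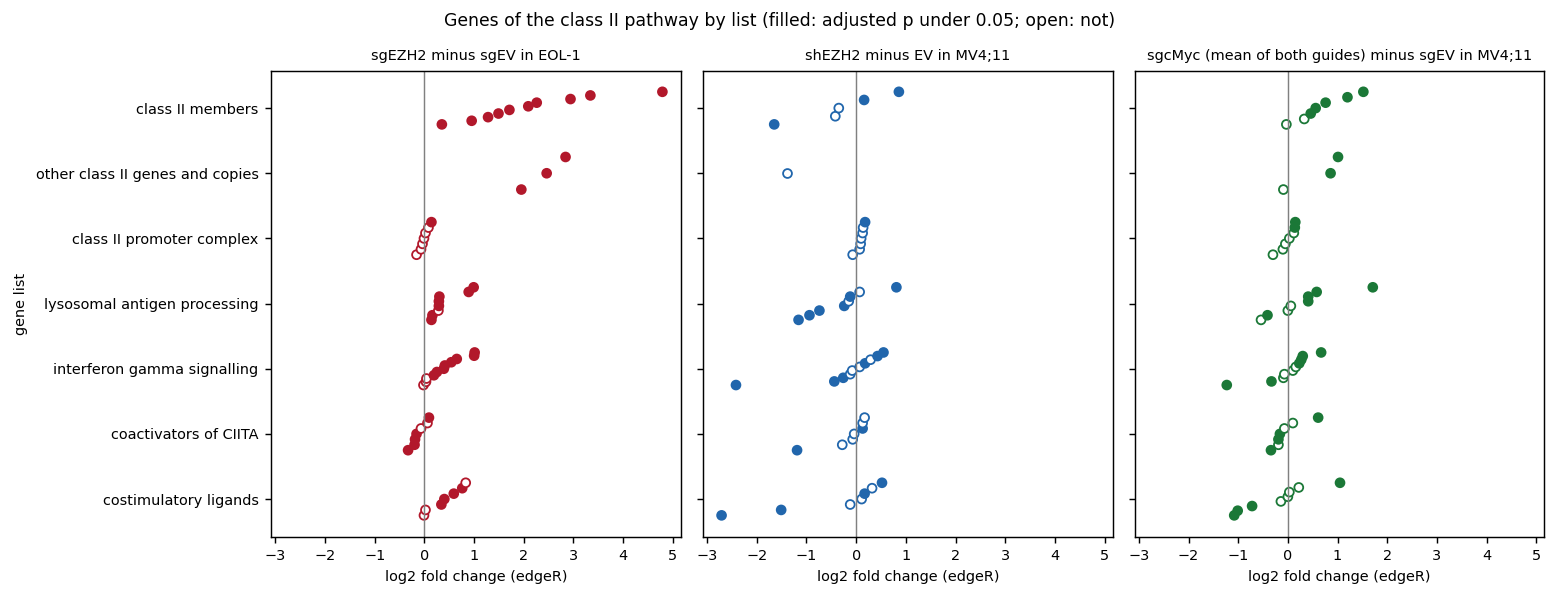
Log2 fold change (x axis, edgeR) of each tested gene of 7 lists around class II presentation, in 1 panel per comparison. Filled points have an adjusted p under 0.05. The class II genes stand to the right in EOL-1 with a median of 1.9, on both sides of 0 with shEZH2, and at a median of 0.56 with sgcMyc, while the promoter complex lies near 0 in all 3 panels.

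Markers of class II bearing cell types moved with some of these results, and their part in them was not tested. Of 7 monocyte markers in EOL-1, 6 were called higher and 1 lower, with summed levels of 1860 to 1900 CPM with sgEZH2, against 303 to 311 CPM with sgEV. LYZ, lysozyme, made up most of that sum, at 1630 and 1650 CPM with sgEZH2 against 202 and 195 CPM with sgEV. The other markers summed to 237 and 249 CPM with sgEZH2, against 109 and 108 CPM with sgEV. With shEZH2, 1 of 4 tested was called higher and 2 lower, with summed levels of 580 to 587 CPM against 314 to 337 CPM with EV. LYZ carried that sum, at 497 and 506 CPM with shEZH2 against 186 and 202 CPM with EV, and the other markers summed to 82.4 and 80.8 CPM with shEZH2 against 128 and 136 CPM with EV. The 2 called lower were FCGR1A, an Fc receptor for IgG (25.3 and 27.8 CPM with shEZH2 against 76.4 and 83.8 CPM with EV), and ITGAM, the integrin CD11b (0.559 and 0.692 CPM against 1.5 and 1.78 CPM). With sgcMyc, 5 of 6 were called higher and 1 lower, with summed levels of 3940 to 3960 CPM with guide 1 and 3600 to 3700 CPM with guide 5, against 358 to 359 CPM in sgEV libraries. LYZ was again most of the sum in the sgcMyc libraries, at 3710 and 3720 CPM with guide 1 and 3380 and 3480 CPM with guide 5. It stood at 159 and 158 CPM with sgEV. Without LYZ, the markers summed to 235 and 237 CPM with guide 1 and 221 and 219 CPM with guide 5. That compares with 199 and 201 CPM in sgEV libraries. Among all genes tested, 15.1% were called higher and 11.8% lower with sgEZH2. The shares were 13.4% higher and 14.2% lower with shEZH2, and 18.6% and 18.7% with sgcMyc.

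Of 3 B cell markers in EOL-1, 2 were called higher, with summed levels of 7.51 to 8.23 CPM with sgEZH2, against 3.47 to 3.90 CPM with sgEV, and MS4A1 and PAX5 were not analysed there. T and NK cells are not among the class II bearing cells named above. Their markers summed to 91.5 to 99.9 CPM with sgEZH2, against 110 to 113 CPM with sgEV. Of 2, 1 was called higher and 1 lower, and the CD3 genes were not analysed. NKG7 made up most of that sum, averaging 94.2 CPM with sgEZH2 and 111 CPM with sgEV. In MV4;11, 3 of 3 T and NK cell markers were called lower with shEZH2 (summed 285 to 286 CPM, against 386 to 389 CPM with EV). With sgcMyc, 1 of 3 was called higher and 1 lower (614 to 620 CPM with guide 1 and 575 to 585 CPM with guide 5, against 460 to 468 CPM with sgEV). CD4 made up most of these sums. It averaged 248 CPM with shEZH2 and 334 CPM with EV, and 554 CPM with guide 1, 515 CPM with guide 5 and 381 CPM with sgEV. Of 5 dendritic cell markers in EOL-1, 3 were called higher, with summed levels of 22.4 to 26.0 CPM with sgEZH2, against 16.4 to 17.9 CPM with sgEV. FCER1A, the alpha chain of the IgE receptor, had 23 and 15 counts with sgEZH2, against 0 and 0 with sgEV, and CLEC10A, a lectin of dendritic cells, had 17 and 25 counts, against 0 and 1. Both passed the filter on low counts only through the sgEZH2 libraries, so their calls, 2 of the 3, are a description, beside 15.1% of all genes higher. In MV4;11, 1 B cell marker rose and 1 fell of 4 tested with shEZH2 (summed 3.29 to 3.78 CPM, against 4.62 to 5.48 CPM with EV), and 0 of 5 were called with sgcMyc (6.13 to 8.34 CPM with guide 1 and 6.74 to 8.64 CPM with guide 5, against 6.30 to 6.97 CPM with sgEV). Of the dendritic cell markers, 2 of 3 rose with shEZH2 (47.2 to 48.7 CPM, against 30.9 to 35.3 CPM with EV), and 1 rose and 3 fell of 5 with sgcMyc (94.1 to 95.1 CPM with guide 1 and 77.6 to 86.8 CPM with guide 5, against 111 to 117 CPM with sgEV). IL3RA made up most of the dendritic cell sums in both lines. It averaged 18.3 CPM with sgEZH2 and 13.5 CPM with sgEV in EOL-1, and 37.6 CPM with shEZH2 and 24.7 CPM with EV. In the sgcMyc comparison IL3RA averaged 61.4 CPM with guide 1, 54.9 CPM with guide 5 and 78.7 CPM with sgEV. Of 7 myeloid blast markers in EOL-1, 5 rose and 0 fell (899 to 902 CPM with sgEZH2, against 718 to 736 CPM with sgEV). With shEZH2, 1 of 6 rose and 3 fell (1010 to 1040 CPM, against 1150 to 1170 CPM with EV). With sgcMyc, 3 of 6 rose and 1 fell. Their sums were 1360 to 1380 CPM with guide 1 and 1340 to 1350 CPM with guide 5, against 1450 to 1460 CPM with sgEV. RNASE2, the eosinophil marker, rose by 0.92 ± 0.05, 0.28 ± 0.05 and 1.6 ± 0.05 (log2, SE) with sgEZH2, shEZH2 and sgcMyc. Beside the counts for each cell type, 15.1% of all genes tested rose and 11.8% fell in EOL-1. The shares were 13.4% and 14.2% with shEZH2, and 18.6% and 18.7% with sgcMyc.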

How the data were processed

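Per the file headers, each of 3 tables gives raw columns, which the authors deposited as estimated counts of genes, and normalised columns on a log2 scale, also made by the authors. A mean signal per gene, deposited by the authors as baseMean, was not used. RSEM, DESeq and hg19 stand in the submitters' processing notes. Aligner, annotation, versions and use of strand: not given in the sources used here. Reads of overlapping or antisense genes may therefore be mixed. Per the labels' protocols, RNeasy (Qiagen) gave the RNA and NEBNext Ultra II the libraries. Table columns carry shorter names than the sample titles and were matched to them by target, guide and replicate number.

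Counts were rounded and tested over whole tables with edgeR 4.0.16 in R 4.3.3 (filterByExpr, TMM, robust glmQLFit, glmQLFTest), p-values being adjusted by Benjamini-Hochberg and called under 0.05. SE is the log2 fold change divided by the root of F. One fit covered the 3 groups of the sgcMyc table, and both EZH2 tables entered another for the difference of effects. The fits were tested on simulated counts with known changes. Both MV4;11 tables hold 56 spike-in rows (1.06 to 1.3% of counts), kept out of library sizes and tests. Sampling noise was exceeded between the libraries of every group (chi-square divided by its degrees of freedom, 1.47 to 5.47, for genes of 20 or more counts).

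DESeq2 1.42.0, limma 3.58.1 on the deposited log2 values, other scalings and filters, summed paralogous HLA genes, the replicate number as a block and leaving out each library were alternatives. Shared 50-base windows come from GENCODE 29 transcripts, 1 transcript per gene. All class II genes with a value are named, with up to 4 genes of smallest p from each other list and the 5 genes most like CD74, HLA-DRA and CIITA over genes with a mean of at least 5 CPM. Markers without a value are named as examples, and some genes that meet these rules are left out of the text. Members and lists were chosen with earlier results of these data known.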

Additional observations from a re-analysis of the deposited data

Results flagged for a closer look

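In a test of the difference itself, the effect of EZH2 depletion was called different between EOL-1 and MV4;11 for 5 class II genes. Of all 13543 genes tested, 26.5% were called. The EOL-1 effect minus the MV4;11 effect on the log2 scale was 0.78 for CD74, 0.69 for CIITA and 1.91 for HLA-DMA. It was 4.51 for HLA-DPA1 and 3.35 for HLA-DRB1. HLA-DPA1 passed the filter through EOL-1 and rests on 1 to 4 counts per MV4;11 library, so its call is a description. The call on CIITA was lost in DESeq2 (adjusted p = 0.186) and in several fits that left out 1 library. Guide 5 minus guide 1 among the libraries labelled sgcMyc was also past the threshold for CD74 (-0.24) and HLA-DRA (-0.72). Both guide calls were lost with spike-in scaling (adjusted p = 0.741 and 0.104, edgeR's quasi-likelihood test). With 2 libraries per group, single libraries were not tested for standing apart.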

How the results depend on the processing

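With 2 libraries per group, single calls near the threshold depend on each library, and the deeper EOL-1 libraries give more counts per gene than those of MV4;11. In EOL-1 every class II gene tested was higher in each alternative run (9 genes tested with a mean of at least 50 counts, otherwise 10), and 9 or 10 were called. Leaving out each library gave 0 to 2 genes called higher with shEZH2 and 1 lower, 4 to 5 higher with the mean of the sgcMyc guides, 5 with guide 1, 3 to 4 with guide 5, 0 to 4 lower for guide 5 minus guide 1, and 3 to 5 for the difference of EZH2 effects. Over all genes it gave 2589 to 3945 calls in EOL-1, 2472 to 4272 with shEZH2, 2935 to 6177 with the mean of the guides, 2477 to 5758 with guide 1, 2359 to 5075 with guide 5, 9 to 874 for guide 5 minus guide 1 and 2667 to 3622 for the difference of effects. Where a group was left with 1 library, that library is assumed to vary like the others.

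With DESeq2, shEZH2 had 0 class II genes called higher and guide 5 minus guide 1 had 1 lower. With DESeq2 the calls over all genes were 1870 in EOL-1, against 3738 in edgeR, 1844 with shEZH2 (3760), 3219 with the mean of the guides (5205), 2625 with guide 1 (4489), 2559 with guide 5 (4354) and 2046 for the difference of effects (3593). Without robust estimation, guide 5 minus guide 1 had 1 lower. Scaled to the spike-ins, shEZH2 had 1 higher and 2212 calls over all genes, and guide 5 minus guide 1 had 0 lower and 1 call. That scaling moved the share of calls that were higher to 36.4% with shEZH2 and 72.8, 67.3 and 78.3% with the mean of the guides, guide 1 and guide 5, against 48.5, 49.8, 50.2 and 50.3%, and the median of all genes by 0.11 for the mean of the guides and 0.15 for guide 5. Under the spike-in scaling no call on a class II gene changed in the sgcMyc comparisons with sgEV. HLA-DMA with the mean of the guides, at -0.03 and not called, was 0.09 with spike-in scaling and -0.06 to 0.01 without 1 library each (0.01 without guide 1 replicate 2). HLA-DPA1 was -0.07 to 0.58 (-0.07 without guide 5 replicate 1). The cause was not tested.

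Replicate 1 minus replicate 2 in log2 CPM was taken for each gene in each group, and these differences were correlated between groups. Pearson's r was -0.28 between sgEZH2 and sgEV in EOL-1 and 0.167 between shEZH2 and EV. It was -0.061 between guide 1 and sgEV, -0.017 between guide 5 and sgEV and 0.301 between the guides. No label says that a replicate number marks a shared batch. With the replicate number as a block, guide 5 minus guide 1 had 129 calls over all genes and 3 class II genes lower, HLA-DQB1 among them (-0.49, adjusted p = 0.0497, edgeR's quasi-likelihood test). No other class II call changed with the block. Crossed numbers in EOL-1, added after seeing the data, gave 2199 genes higher, 1724 lower and the 10 class II genes higher. Summing paralogous HLA genes, changing the filter and RLE size factors moved no count of class II calls by over 1.5 times. Spike-in scaling was not run in EOL-1, and neither it nor limma for the difference of effects.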
